A study of Homo sapiens with 6 samples.

Results

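The enzymes that make serine, asparagine and one-carbon units were examined in OE33, an epithelial line established from a human adenocarcinoma of the oesophagus. The set holds 10 genes: PHGDH, PSAT1 and PSPH of serine synthesis, SHMT1, SHMT2, MTHFD2 and ALDH1L2 of the folate cycle, the asparagine synthetase gene ASNS, the proline synthesis gene PYCR1 and the phosphoenolpyruvate carboxykinase gene PCK2. They were taken by symbol, through GENCODE 29, from a table of 58051 genes; each matched 1 row and all 10 were among the 14773 genes tested. The 2 groups were 3 libraries of untreated cells and 3 of cells kept for 24 h with APX2009 at 15 µM. The labels give this small molecule as an inhibitor of the redox function of APE1. The controls were untreated and no vehicle is named, both groups were grown in RPMI1640 with serum, and the design text calls the replicates independent biological ones. The comparison asks how transcripts of these enzymes differ after exposure to the compound. In a bulk culture, fewer cells carrying a transcript and less transcript per cell cannot be told apart.

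Cells make serine from the glycolytic intermediate 3-phosphoglycerate in steps run in turn by PHGDH, PSAT1 and PSPH. SHMT enzymes split serine into glycine and a one-carbon group carried by folate. Such groups feed nucleotide and methionine synthesis. MTHFD2 and ALDH1L2 each oxidise folate-bound one-carbon groups in mitochondria. Most of these genes are known targets of ATF4, the transcription factor of the amino acid and integrated stress response, which is itself controlled largely at translation, and many tumours depend on them for growth.

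ATF4 and C/EBP proteins are known to bind a composite element in the ASNS promoter, so promoter sequence is shown for ASNS and for 3 other members: PCK2, whose transcript differed most, and PHGDH and PSAT1, the first enzymes of serine synthesis. The sequences are the 250 bases before the RefSeq start site, written 5′ to 3′ on the gene's strand; GENCODE 29 places the outermost start of ASNS, PCK2 and PHGDH further upstream. Capitals mark TGATGNAA, a core of the C/EBP-ATF response element, in ASNS, and CCAAT in the others.
ASNS, GRCh38.p14, chr7:97872409-97872658, minus strand: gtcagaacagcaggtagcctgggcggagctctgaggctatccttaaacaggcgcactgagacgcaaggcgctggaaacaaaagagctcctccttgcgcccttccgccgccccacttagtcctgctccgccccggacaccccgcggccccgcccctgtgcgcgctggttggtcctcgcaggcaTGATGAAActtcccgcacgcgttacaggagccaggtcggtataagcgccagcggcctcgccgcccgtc
PCK2, GRCh38.p14, chr14:24094061-24094310, plus strand: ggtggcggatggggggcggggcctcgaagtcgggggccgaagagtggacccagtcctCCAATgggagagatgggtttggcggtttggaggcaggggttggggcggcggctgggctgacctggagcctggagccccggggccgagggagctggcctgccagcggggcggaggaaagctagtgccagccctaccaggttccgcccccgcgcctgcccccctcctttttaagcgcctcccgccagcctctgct
PHGDH, GRCh38.p14, chr1:119711684-119711933, plus strand: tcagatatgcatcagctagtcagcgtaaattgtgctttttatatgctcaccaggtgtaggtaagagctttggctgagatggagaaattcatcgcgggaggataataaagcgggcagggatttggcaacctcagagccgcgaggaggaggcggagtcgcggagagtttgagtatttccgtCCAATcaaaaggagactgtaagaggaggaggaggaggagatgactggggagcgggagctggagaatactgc
PSAT1, GRCh38.p14, chr9:78296875-78297124, plus strand: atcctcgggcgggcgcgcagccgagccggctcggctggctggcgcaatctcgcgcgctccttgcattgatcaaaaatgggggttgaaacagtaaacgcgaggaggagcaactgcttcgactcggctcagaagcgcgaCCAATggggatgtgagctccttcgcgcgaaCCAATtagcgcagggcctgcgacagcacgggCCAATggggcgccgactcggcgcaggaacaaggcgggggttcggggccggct
The table of RefSeq promoter windows, each from 250 bases before to 50 bases after a start, held 6 of the 10 members: ASNS (with 2 start sites), PHGDH, PSAT1, SHMT1, MTHFD2 and PCK2. Searched on both strands, TGATGNAA was found in 1 of these 6 genes and in 3.62% of all 35116 windows. That match, in ASNS, begins 68 bases before the start site at position 97872408 of chromosome 7. TGACNNNGC, a core of the antioxidant response element bound by NRF2, was found in MTHFD2 alone among the 6, and in 13.3% of all windows. In MTHFD2 it lies on the opposite strand and after the start site, from base 7 on. In the 250 bases before a start it was found in 0 of the 6 genes and in 10.9% of all windows. The E-box CACGTG, which MYC binds, was in none of the 6 and in 7.26% of all windows. CCAAT, the box bound by NF-Y and searched after the windows had been read, was in 5 of 6 genes, with ASNS the exception, and in 34.6% of all windows. PSAT1 held 3 copies, MTHFD2 and SHMT1 2 each, and PHGDH and PCK2 1 each. These matches describe letters in a window, and the deposited counts do not measure binding there.

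Libraries held 22443569 to 25093753 gene counts in untreated cells and 21158750 to 26111656 in treated cells, and a member had between 332 and 17535 counts in a library. Levels are given in CPM, counts scaled to the TMM-adjusted library size, and rose, fell or changed means an adjusted p under 0.05 in edgeR's quasi-likelihood test over all tested genes. By that rule 34.7% of all tested genes changed, 17.4% lower and 17.2% higher. Epithelial markers were high, with EPCAM at 439.5 to 461.4 CPM in all 6 libraries. Of the 8 on the list, KRT8, KRT18, KRT19 and CDH1 fell, KRT8 2.11-fold. EPCAM, CLDN4, CLDN7 and ELF3 did not pass, with log2 changes of -0.002, -0.07, 0.16 and -0.01. APX2009 replicate 1 stood apart, with 25015 genes seen against 21845 to 22446 in the other 5 libraries and 82547 spike-in counts against 121045 to 170437. Its mitochondrial share of counts was 4.12%, against 0.943% to 2.62% in the other 5. It was also the library in which all 8 fibroblast markers and all 6 endothelial markers had a count, where the other libraries had 2 to 3 and 1 to 4. The summed fibroblast marker level was 19.7 CPM there, 9.16 and 10.5 CPM in the other treated libraries and 8.43 to 12.7 CPM in untreated cells. Most of each sum was COL1A1. In APX2009 replicate 1, COL3A1, DCN and COL1A2 had 48, 42 and 26 counts, against 0 in every other library. The endothelial marker VWF had 36 counts there and 1 to 8 in the others. Leukocyte markers summed to 6.81 to 6.99 CPM in untreated and 7.04 to 8.13 CPM in treated libraries, with CD3D and CD3E at 0 in all. The leukocyte marker CD68, a lysosomal protein abundant in macrophages, rose 2.28-fold (edgeR adjusted p = 0.00513). It was at 0.979 to 1.85 CPM in untreated and 2.68 to 3.89 CPM in treated libraries. CD14 and LYZ, the other leukocyte markers tested, had log2 changes of -0.18 ± 0.16 and -0.76 ± 0.38 (SE) and did not pass. PTPRC had 6 counts in APX2009 replicate 1 and 0 in the other libraries. The part of CD68 in the results below was not tested. All 9 member falls described below also passed without APX2009 replicate 1.

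Transcripts of 9 of the 10 enzymes fell with APX2009 and none rose, beside 17.4% of all tested genes that fell (edgeR). All 10 log2 changes were negative, so no member was higher at an unadjusted p under 0.05 either, and DESeq2 and limma voom also called 9 lower and 0 higher. The median log2 change of the 10 was -0.51, against 0.02 over all tested genes. The fall was largest for PCK2 and ASNS, at 2.29-fold and 1.66-fold, and smallest for MTHFD2, at 1.21-fold. PYCR1 did not pass. In the 9 that fell, no treated library reached the lowest untreated one; such separation downwards was seen in 25.0% of all tested genes, and separation in either direction in 49.4%. Summed over the 10, the level was 3050, 3136 and 3142 CPM in the untreated libraries and 1996, 2185 and 2247 CPM in the treated ones. When libraries were scaled by the spike-in total instead, no member passed (edgeR adjusted p = 0.646 for PCK2 and 1.0 for the others), 1 had an unadjusted p under 0.05, and all 10 log2 changes stayed negative, at -1.19 for PCK2 and -0.69 for ASNS.

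**Figure D1:**
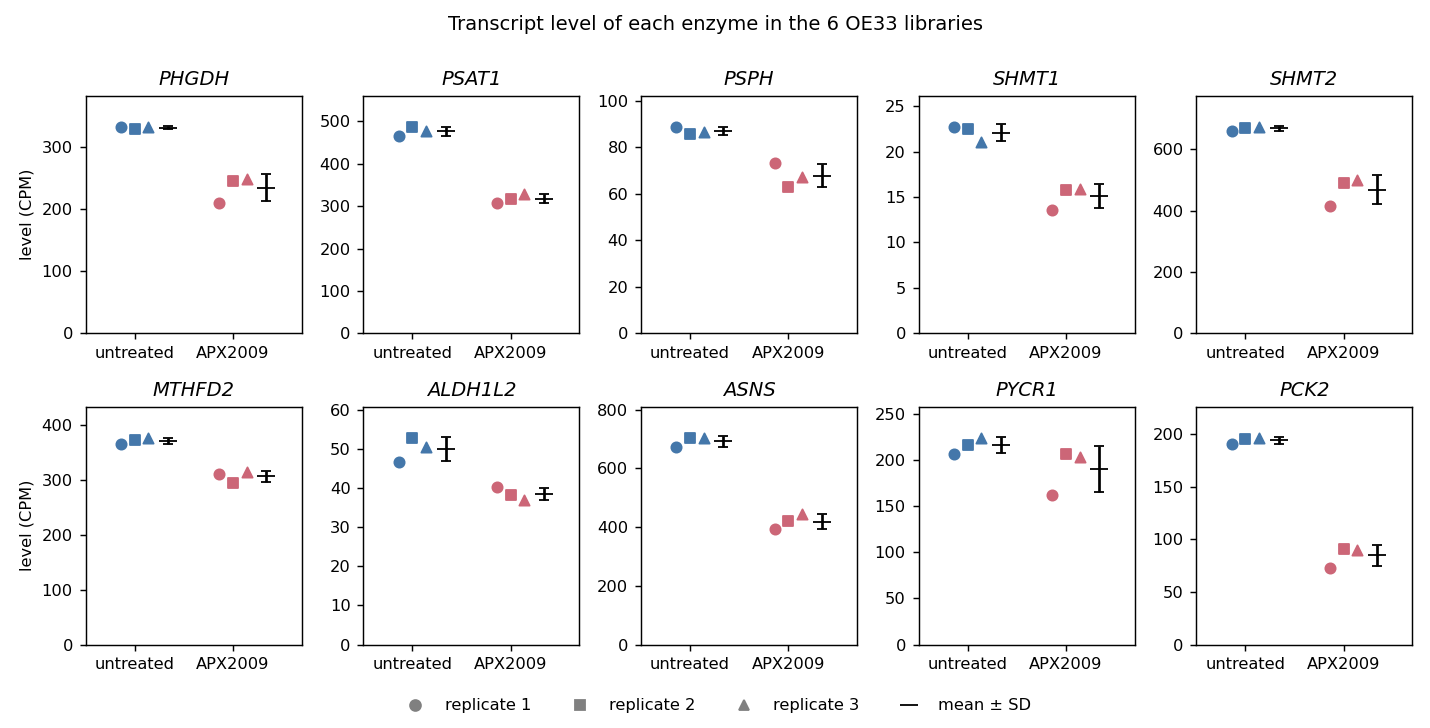
Level of each of the 10 enzyme transcripts (CPM, axes from 0) in untreated and APX2009 libraries; symbols are replicates, and the bar beside them is the mean ± SD of 3 libraries. In every panel but PYCR1 all 3 treated points lie below all 3 untreated points, with PCK2 at 73.1 to 90.9 CPM against 190.1 to 196.4 CPM.

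In serine synthesis all 3 enzymes fell. PHGDH, the dehydrogenase that commits 3-phosphoglycerate to serine (ENSG00000092621, chromosome 1, 119648411 to 119744226), was at 332.5, 329.8 and 333.6 CPM in untreated cells and at 209.6, 246.5 and 249.0 CPM in treated cells. The untreated libraries were nearly equal and all lay above the treated ones, of which replicate 1 was lowest. The log2 change was -0.50 ± 0.08 (SE; edgeR adjusted p = 0.000813), and -0.42 without APX2009 replicate 1. PSAT1, the aminotransferase of the next step (ENSG00000135069, chromosome 9, 78297143 to 78330093), was at 465.3, 487.9 and 476.9 CPM untreated and at 307.0, 317.5 and 329.6 CPM treated. The treated libraries sat close together, well under the untreated ones, and the log2 change was -0.58 ± 0.06 (edgeR adjusted p = 0.000102). PSPH, the phosphatase that releases serine (ENSG00000146733, chromosome 7, 56011051 to 56051604), was lower in level, at 88.8, 85.5 and 86.5 CPM untreated and 73.0, 63.1 and 67.0 CPM treated. Here APX2009 replicate 1 was the highest of the treated libraries, and the groups did not overlap (log2 change -0.36 ± 0.07; edgeR adjusted p = 0.00262). The unprocessed pseudogene PSPHP1 was counted at 2.90 ± 0.166 CPM untreated and 3.35 ± 0.543 CPM treated (SD, n = 3), and its log2 change of 0.22 ± 0.17 did not pass (edgeR).

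SHMT1 and SHMT2 code for the cytosolic and the mitochondrial serine hydroxymethyltransferase, and both transcripts fell. SHMT2 (ENSG00000182199, chromosome 12, 57229327 to 57234935) was at 660.3, 669.4 and 673.7 CPM in untreated libraries and at 414.2, 491.2 and 499.0 CPM in treated ones. The log2 change was -0.51 ± 0.08 (edgeR adjusted p = 0.000929). Its treated libraries spread over a coefficient of variation of 10.0%, against 1.03% in untreated cells, with replicate 1 lowest. SHMT1 (ENSG00000176974, chromosome 17, 18327860 to 18363563) was scarce, at 22.8, 22.5 and 21.0 CPM untreated and 13.6, 15.8 and 15.9 CPM treated, and its log2 change was -0.55 ± 0.09 (edgeR adjusted p = 0.00116). Its exons share 196 bases with SMCR8 on the other strand, a gene at 77.1 ± 6.82 CPM untreated and 92.5 ± 12.6 CPM treated (SD, n = 3; edgeR adjusted p = 0.0740). The strand setting of the counting is not given in the sources used here, so reads in those bases cannot be told apart. The merged annotated exons come to 4838 bases for SHMT2 and 7281 for SHMT1, and the size of a ratio per kilobase depends on them. Per kilobase of these exons, SHMT2 stood 45.5 times above SHMT1 in untreated and 46.7 times in treated libraries, as geometric means. The log2 ratio was 5.45, 5.49 and 5.59 untreated and 5.52, 5.55 and 5.56 treated, overlapping ranges (two-sided exact permutation test p = 0.5; smallest possible 0.1).

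MTHFD2, the mitochondrial methylenetetrahydrofolate dehydrogenase and cyclohydrolase (ENSG00000065911, chromosome 2, 74198562 to 74217565), fell least of those that passed. It was at 365.6, 371.2 and 376.1 CPM in untreated and 310.5, 294.2 and 313.2 CPM in treated libraries, a log2 change of -0.28 ± 0.06 (edgeR adjusted p = 0.00674). Both groups were tight and apart from each other, and its weakest call came without untreated replicate 3 (edgeR adjusted p = 0.0497). ALDH1L2, the mitochondrial 10-formyltetrahydrofolate dehydrogenase, an NADPH-forming enzyme (ENSG00000136010, chromosome 12, 105019784 to 105084577), was at 46.7, 52.9 and 50.5 CPM untreated and at 40.3, 38.3 and 37.0 CPM treated. It was the 1 member with a larger coefficient of variation untreated, at 6.26%, than treated, at 4.27%, and its log2 change was -0.38 ± 0.07 (edgeR adjusted p = 0.00247). Its cytosolic counterpart ALDH1L1 was not tested, with 0 to 6 counts in a library.

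The cytosolic, trifunctional MTHFD1 fell more than MTHFD2, with a log2 change of -0.51 ± 0.07 against -0.28 ± 0.06. The log2 ratio of MTHFD2 to MTHFD1 per kilobase was 2.64, 2.75 and 2.77 in untreated and 3.04, 2.80 and 3.00 in treated libraries. The 3 treated values lay above the 3 untreated ones, which gives p = 0.1 in a two-sided exact permutation test, the smallest this design allows, and 0.2 adjusted over the 2 ratios tested. The paralogue MTHFD2L, scarce at 4.83, 3.94 and 5.21 CPM untreated, rose to 7.42, 6.62 and 6.51 CPM (log2 change 0.56 ± 0.15; edgeR adjusted p = 0.0136). MTHFD1L, which completes the mitochondrial branch by releasing formate, fell with a log2 change of -0.35 ± 0.07 (edgeR adjusted p = 0.00317).

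ASNS, which makes asparagine from aspartate with glutamine as nitrogen donor (ENSG00000070669, chromosome 7, 97852118 to 97872542), is the member whose promoter holds the TGATGNAA match printed above. It was at 671.4, 704.3 and 703.4 CPM in untreated libraries and at 392.6, 420.4 and 443.2 CPM in treated ones. No treated library came near the untreated range, and the log2 change was -0.73 ± 0.07 (95% confidence interval -0.88 to -0.57; edgeR adjusted p = 4.35e-05). Of all tested genes, 4.66% had a lower log2 change.

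PCK2, the mitochondrial enzyme that turns oxaloacetate into phosphoenolpyruvate and so can feed carbon toward 3-phosphoglycerate (ENSG00000100889, chromosome 14, 24094053 to 24110598), fell most. It was at 190.1, 195.4 and 196.4 CPM in untreated and 73.1, 90.9 and 90.2 CPM in treated libraries. The log2 change was -1.20 ± 0.09 (95% confidence interval from -1.39 to -1.003; edgeR adjusted p = 6.75e-06), an interval that does not reach that of ASNS, and 0.954% of tested genes had a lower log2 change. It was the 1 member that fell at least 2-fold, as did 1.78% of all tested genes, and its fall was 2.15-fold without APX2009 replicate 1. The cytosolic form PCK1 had 0 counts in all 6 libraries.

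PYCR1, a mitochondrial pyrroline-5-carboxylate reductase that forms proline (ENSG00000183010, chromosome 17, 81932384 to 81942412), was at 206.9, 216.8 and 224.1 CPM untreated and 162.1, 206.9 and 203.3 CPM treated. APX2009 replicate 1 lay low, while replicate 2 met the lowest untreated library, so the groups overlapped. The log2 change was -0.18 ± 0.09 with a 95% confidence interval of -0.39 to 0.03 (edgeR adjusted p = 0.164), an interval that still holds a fall about as large as that of MTHFD2. Without APX2009 replicate 1 it was -0.08 (edgeR adjusted p = 0.270). The related enzyme PYCR3 fell, with a log2 change of -0.50 ± 0.10 (edgeR adjusted p = 0.00296).

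**Figure D2:**
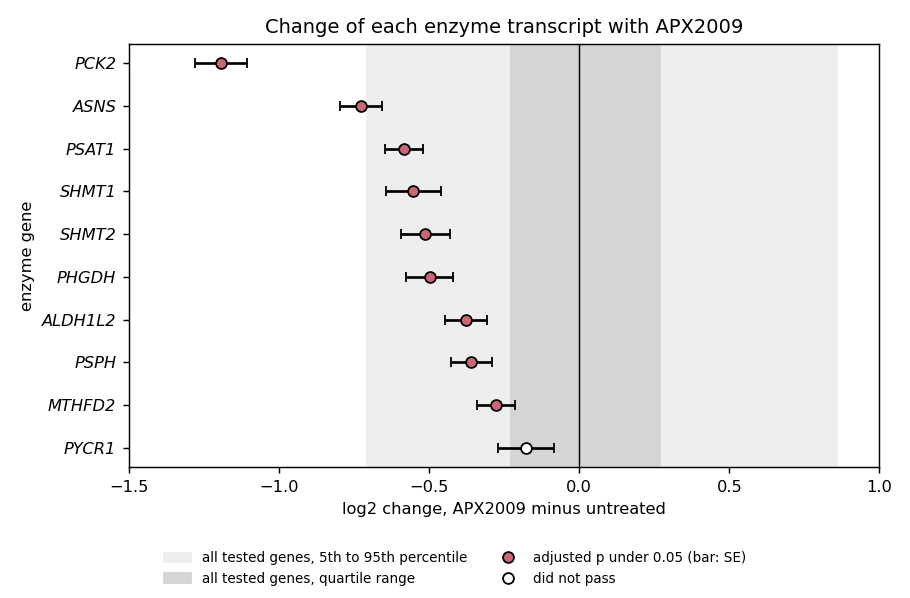
Log2 change of each enzyme transcript, APX2009 minus untreated, with bars of 1 SE; filled points passed at an adjusted p under 0.05 in edgeR, and grey bands give percentiles of all 14773 tested genes. PCK2 at -1.20 and ASNS at -0.73 lie below the 5th percentile of -0.71, and PYCR1 at -0.18 lies inside the quartile band, which starts at -0.23.

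The treated libraries did not lie evenly below the untreated ones. Of the 10 members, 7 were lowest in APX2009 replicate 1, against 41.6% of all tested genes. The median log2 difference from the untreated mean was -0.65 in replicate 1, -0.45 in replicate 2 and -0.43 in replicate 3. Without replicate 1, log2 changes ran from -1.10 for PCK2 to -0.08 for PYCR1, the same 9 passed (edgeR adjusted p from 2.33e-08 to 0.000632), and PSPH, MTHFD2 and ALDH1L2 were further below untreated, at -0.42, -0.29 and -0.41. The part of that library's other properties in these values was not tested beyond leaving it out.

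Levels between genes were compared per kilobase of merged exon length and scaled to the same total in each library, a length-scaled level that depends on the annotated exons; that of PHGDH includes long annotated exons of 9217 bases in all. In untreated cells PSAT1 was highest at 854.8 ± 46.4 and ASNS next at 610.4 ± 35.2, then SHMT2 at 541.4 ± 21.9 (SD, n = 3). MTHFD2 and PYCR1, at 298.8 ± 12.9 and 293.6 ± 19.8, did not differ beyond their spread. PCK2, PHGDH and PSPH followed at 181.6 ± 8.69, 141.2 ± 4.17 and 123.4 ± 1.53, and ALDH1L2 and SHMT1 were lowest at 23.1 ± 2.15 and 11.9 ± 0.463. After APX2009 the order was PSAT1 at 544.3 ± 35.6, SHMT2 at 362.9 ± 48.0 and ASNS at 352.1 ± 31.8, with the libraries of the last pair overlapping. PYCR1 and MTHFD2 overlapped, as did PHGDH and PSPH. PCK2 had the next lower mean, 75.9 ± 11.5; its libraries, at 62.7 to 83.3, lay below all those of PSPH but overlapped those of PHGDH, the lowest of which was at 81.7.

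**Figure D3:**
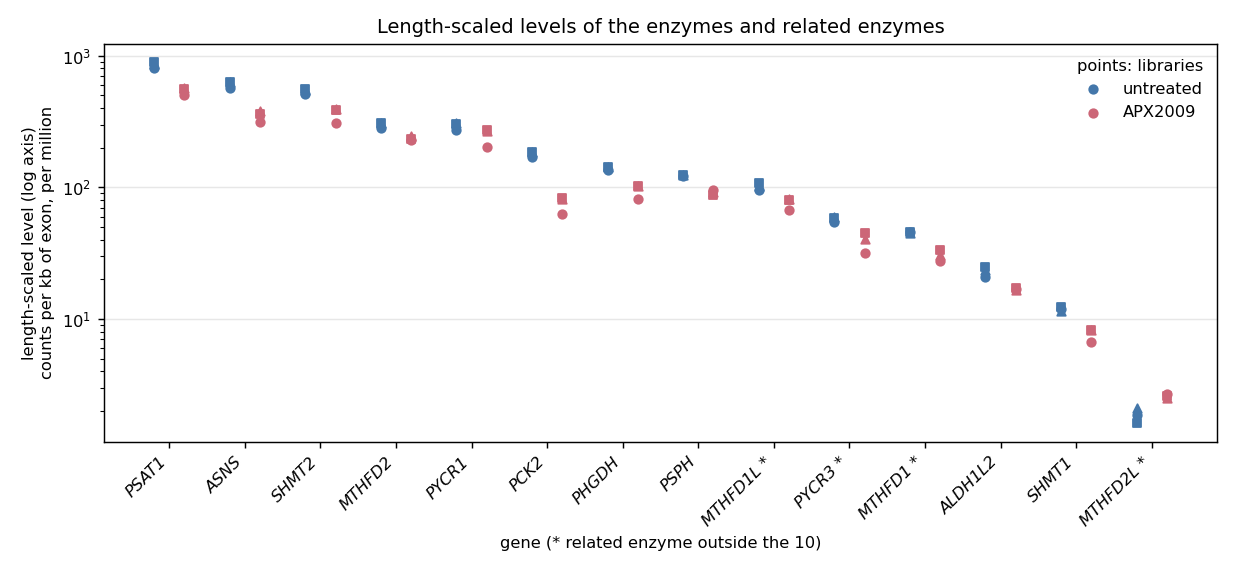
Length-scaled level (counts per kilobase of exon, scaled to the same total in each library, log axis) of the 10 enzymes and, starred, 4 related enzymes, each point a library. Blue untreated points lie above the red APX2009 points for the 9 members that fell, and MTHFD2L, at the bottom near 2, is the starred gene with the reverse order.

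The ATF4 transcript moved in the other direction from the members, and whether ATF4 acts on them in these cells was not tested. ATF4 mRNA was at 820.8, 823.4 and 840.1 CPM in untreated and 979.4, 1022 and 1090 CPM in treated libraries, with no overlap, and rose with a log2 change of 0.32 ± 0.07 (edgeR adjusted p = 0.00543). ATF4 protein was not measured. Over all tested genes, 17.2% rose and 17.4% fell. Of 19 tested genes in a list of ATF4 regulators and other ATF4 targets, 5 rose, 4 fell and 10 did not pass. The list's median log2 change was -0.08. Those that rose, besides ATF4, were the stress kinase gene EIF2AK3 (PERK) at 2.70-fold, DDIT3 (CHOP) at 2.11-fold, the eIF2α phosphatase subunit gene PPP1R15A at 1.60-fold and NFE2L2 (NRF2) at 1.24-fold. Those that fell were DDIT4, an inhibitor of mTORC1 signalling, at 2.04-fold, the glutathione-degrading CHAC1 at 1.67-fold, SESN2 at 1.28-fold and the amino acid sensor kinase gene EIF2AK4 (GCN2) at 1.22-fold. NFE2L2, SESN2 and EIF2AK4 are named to complete the counts, after their values were seen. At an adjusted p under 0.01 the list's counts were 5 higher and 3 lower (edgeR). Without APX2009 replicate 1 they were 7 higher and 6 lower. Known ATF4 targets thus stood on both sides, with DDIT3 at 223.7, 204.4 and 214.6 CPM in treated cells against 106.0, 99.0 and 99.0 CPM, and CHAC1 at 68.2, 78.1 and 91.5 CPM against 128.3, 135.6 and 132.9 CPM.

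Of 15 tested other folate enzymes and transporters, 6 fell and 2 rose, beside 17.4% lower and 17.2% higher over all tested genes. The list's median log2 change was -0.17. At an adjusted p under 0.01 the counts were 4 lower and 1 higher (edgeR). Besides MTHFD1 and MTHFD1L, the smallest p were those of FOLR1, TYMS and SLC46A1. The thymidylate synthase gene TYMS fell, with -0.78 ± 0.16, and SLC46A1, which codes for a proton-coupled folate transporter, rose, with 0.34 ± 0.08 (edgeR adjusted p = 0.00898). The folate receptor gene FOLR1 was scarce, at 0.956 ± 0.144 CPM untreated and 0.177 ± 0.109 CPM treated, and passed the filter on low counts through its untreated libraries, with 22, 27 and 18 counts against 8, 2 and 3. Of 8 tested genes of glycine cleavage and serine use, 3 fell and none rose, with a median of -0.21 (edgeR; 0 higher at an unadjusted p under 0.05 and 0 by DESeq2 or limma voom). These were CTH, which makes cysteine from serine-derived cystathionine, at -0.67 ± 0.11, the sphingolipid synthesis gene SPTLC2 at -0.40 ± 0.07 and SDSL at -0.49 ± 0.13. AMT and SPTLC1 had log2 changes of 1.13 ± 0.56 and -0.11 ± 0.06 and did not pass. Another 3 of the list's 11 genes were too low to test.

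Of 8 tested genes listed for the methionine cycle, which takes up one-carbon units from folate, 2 fell and 3 rose. Their median log2 change was -0.04. Over all tested genes 17.4% fell and 17.2% rose, to be read beside the counts of this paragraph. Methionine synthase, MTR, and its reductase MTRR fell, with -0.52 ± 0.07 and -0.43 ± 0.08. MAT2B, AHCYL1 and AHCYL2 rose, with 0.39 ± 0.07, 0.41 ± 0.06 and 0.35 ± 0.08. Of 9 serine and glycine transporter genes 2 fell and none rose by edgeR, with a median of -0.05 (1 higher at an unadjusted p under 0.05, 1 by DESeq2 and 0 by limma voom). SLC1A4, a plasma membrane carrier of neutral amino acids, had -0.54 ± 0.11 and the mitochondrial sideroflexin SFXN2 -0.59 ± 0.12, while SLC25A38, SLC6A9 and SLC38A2 had 0.29 ± 0.11, -0.12 ± 0.07 and -0.07 ± 0.08 and did not pass. Without APX2009 replicate 1 the transporter counts were 3 lower and 1 higher.

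The list counts of this paragraph stand beside 17.4% of all tested genes that fell and 17.2% that rose. Around the other members, 4 of 11 tested aspartate, asparagine and glutamine genes fell and none rose by edgeR. Their median log2 change was -0.33. In that list 1 gene was higher at an unadjusted p under 0.05 by edgeR, and 0 were higher by DESeq2 or limma voom. Without APX2009 replicate 1 there was 1 higher. The alanine aminotransferase gene GPT2 had -0.70 ± 0.08, the argininosuccinate genes ASS1 and ASL, which use aspartate, -0.62 ± 0.08 and -0.52 ± 0.07, and the glutamate dehydrogenase gene GLUD1 -0.40 ± 0.07. ASRGL1, an asparaginase, had -0.40 ± 0.15 and did not pass. Of 4 tested genes of proline and ornithine, PYCR3 fell, OAT and ALDH4A1 rose with 0.33 ± 0.06 and 0.42 ± 0.12, and ALDH18A1, with -0.13 ± 0.07, did not pass. Among 11 tested enzymes at the branch points of PCK2 and 3-phosphoglycerate, 2 fell and 1 rose, with a median of -0.11. Pyruvate kinase PKM and the succinyl-CoA ligase subunit SUCLG2 had -0.59 ± 0.09 and -0.65 ± 0.07, the enolase ENO2 rose with 0.59 ± 0.11, and PGAM1 and FBP1 had -0.31 ± 0.11 and -0.51 ± 0.18 and did not pass. Without APX2009 replicate 1 the counts of this list were 5 lower and 2 higher. The counts of all these lists differ from one another without a test of the difference, and with scaling by the spike-in total none of the 85 tested genes in them passed (edgeR; 2 higher and 2 lower at an unadjusted p under 0.05).

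**Figure D4:**
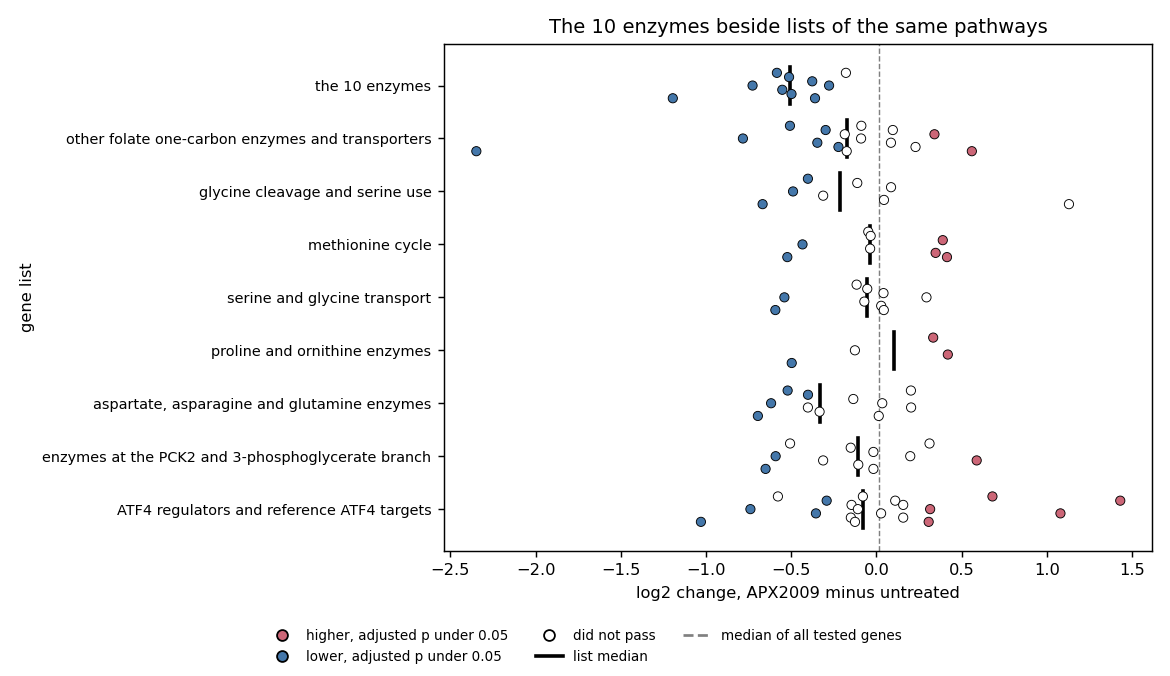
Log2 change, APX2009 minus untreated, of each tested gene in the 10-enzyme set and in 8 lists of the same pathways; blue and red points passed lower and higher (edgeR adjusted p under 0.05), open points did not pass, and black bars are list medians. The 10 enzymes have a median of -0.51 and no point above 0, and the list of ATF4 regulators and targets has points on both sides, from -1.03 for DDIT4 to 1.43 for EIF2AK3.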

How the data were processed

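Polyadenylated RNA of 6 OE33 cultures was sequenced, per the labels' protocols. The authors deposited unnormalized read counts, as whole numbers, for 58051 Ensembl genes and 92 ERCC spike-ins. Per the submitters' processing notes, Trimmomatic 0.36, STAR 2.5.2b, featureCounts and Subread 1.5.2 were used on GRCh38; annotation release and strand setting are not given there. GENCODE 29 (GRCh38) matched 57447 IDs and gave symbols, positions and exon lengths; promoter windows came from RefSeq (GRCh38.p14).

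Spike-ins were kept out of library sizes. Genes were filtered with filterByExpr, scaled by TMM and tested in edgeR 4.0.16 (R 4.3.3; quasi-likelihood F-test) on treatment alone, two-sided, with Benjamini-Hochberg adjustment over 14773 genes. SE were derived from the F statistic. Permutation tests used scipy 1.17.1. Alternatives were DESeq2 1.42.0, limma 3.58.1 voom, other scalings and filters, a replicate block, an adjusted p under 0.01, and leaving out each library.

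The members and lists were chosen with earlier results of these data known. Named were all members, their related enzymes, ATF4 and up to 5 genes with the smallest p in each list. Any cell type marker reaching a mean log2 CPM of 3 was named too. The markers CD68, CD14, LYZ, PTPRC, CD3D, CD3E, COL3A1, DCN, COL1A2 and VWF lie below that level and are named outside this rule. Some genes of the pathway lists are not reported here and were left out of the lists' counts. Among overlapping genes, 5 of 8 stayed under 1 CPM in all libraries, as did 16 of 17 pseudogenes named after members. No pair of libraries of the same group agreed within sampling noise (chi-square per degree of freedom 3.22 to 33.4).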

Additional observations from a re-analysis of the deposited data

How the results depend on the processing

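Of 17 alternatives, 16 left 9 members lower and 0 higher; the exception was scaling by the spike-in total, where 0 members changed and, over all genes, 129 were higher and 7 lower against 2543 and 2576. Over all tested genes the median log2 change moved from 0.02 with TMM to 0.08 with that scaling, and the spike-in counts of the treated libraries ran from 82547 to 170437. The cause of the lost calls was not tested. At an adjusted p under 0.01, 1470 genes were higher and 1587 lower over all genes, and 9 members still passed. No member changed sign in any alternative. Leaving out 1 library at a time gave 9 members changed and 0 higher each time, with 1708 to 2839 genes higher and 1795 to 2870 lower.

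The replicate number as a block (replicate block) gave 9 members lower and 0 higher, with 2757 genes higher and 2744 lower. The samples share only a number: deviations of same-numbered libraries correlated at 0.14, 0.0782 and 0.00599, while untreated replicate 2 and APX2009 replicate 3 reached 0.115, so not every library correlated best with its own number.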
